A study of Mus musculus with 4 samples.

Results

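The genes described here are 10 members of the YAP, TAZ and TEAD module and its targets, namely Yap1, Wwtr1 (which encodes TAZ), Tead1, Tead2, Tead3, Tead4, Ccn1, Ccn2, Amotl2 and Ankrd1. They were taken from a fixed list of names, with every array probe set annotated to one of them alone. All 10 were found, through 11 probe sets, among 19938 genes measured in mouse terminal end buds on Affymetrix arrays that probe whole transcripts. Terminal end buds are the growing tips of the ducts of the pubertal mammary gland.

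The knockout pools came from Ovol2flox/-;K14-Cre females, which carry 1 floxed and 1 null allele of Ovol2, a zinc finger repressor of the epithelial-mesenchymal transition. K14-Cre is Cre recombinase under the keratin 14 promoter, active in basal epithelium and skin, while the null allele is present in every cell. The control pools came from Ovol2flox/+ females, which the sample characteristics give without Cre, whereas the protocol allows control mice with K14-Cre as well. All mice were C57/BL6 littermates labelled 4.5 weeks old, although the series text gives 24 to 25 days. Each group had 2 arrays, each control array a pool of 2 mice and each knockout array one of 3, so pool size differed with genotype. The series text gives the purpose as finding early changes, at an age when end bud shape still differed little.

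YAP and TAZ are transcriptional coactivators that have no DNA-binding domain of their own and act mainly through the 4 TEAD transcription factors. In the Hippo cascade MST kinases activate LATS kinases, which phosphorylate YAP and TAZ and hold them in the cytoplasm, while cell spreading and stiff matrix favour their entry into the nucleus. Much of this control acts on protein location and stability, which an RNA array does not measure. Ccn1 and Ccn2 encode secreted matricellular proteins, Amotl2 encodes an angiomotin that holds YAP at junctions, and Ankrd1 encodes an ankyrin repeat protein of muscle and stressed cells. These 4 genes are widely used as readouts of YAP and TEAD activity.

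TEAD factors bind DNA through a core read as GGAATG, or CATTCC on the opposite strand. Every match to these letters on either strand is in capitals below. The upstream sequences of Ccn1, Amotl2 and Ankrd1 are shown because these genes serve as readouts of TEAD activity. Each is the 250 bases before the start site in RefSeq (GRCm38.p6), written 5′ to 3′ on the strand of the gene, at chr3:145649986-145650235 (minus strand) for Ccn1, chr9:102717554-102717803 (plus strand) for Amotl2 and chr19:36119845-36120094 (minus strand) for Ankrd1. The window of Yap1, at chr9:8004597-8004846 (minus strand), is shown because the coactivator gene carries the letters itself.
Ccn1: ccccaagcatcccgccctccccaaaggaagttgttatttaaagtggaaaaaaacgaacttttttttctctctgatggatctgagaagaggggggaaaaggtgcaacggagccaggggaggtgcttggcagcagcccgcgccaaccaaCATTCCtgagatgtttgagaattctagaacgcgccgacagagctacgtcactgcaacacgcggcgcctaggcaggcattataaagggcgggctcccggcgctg
Amotl2: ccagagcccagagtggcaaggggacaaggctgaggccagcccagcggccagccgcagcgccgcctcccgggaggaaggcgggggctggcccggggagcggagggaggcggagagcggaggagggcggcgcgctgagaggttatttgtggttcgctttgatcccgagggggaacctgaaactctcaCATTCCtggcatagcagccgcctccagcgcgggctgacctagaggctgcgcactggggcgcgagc
Ankrd1: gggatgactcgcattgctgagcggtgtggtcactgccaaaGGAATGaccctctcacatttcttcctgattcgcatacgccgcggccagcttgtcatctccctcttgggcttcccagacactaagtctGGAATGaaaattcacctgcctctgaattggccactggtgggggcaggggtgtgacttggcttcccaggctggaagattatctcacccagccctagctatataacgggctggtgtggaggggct
Yap1: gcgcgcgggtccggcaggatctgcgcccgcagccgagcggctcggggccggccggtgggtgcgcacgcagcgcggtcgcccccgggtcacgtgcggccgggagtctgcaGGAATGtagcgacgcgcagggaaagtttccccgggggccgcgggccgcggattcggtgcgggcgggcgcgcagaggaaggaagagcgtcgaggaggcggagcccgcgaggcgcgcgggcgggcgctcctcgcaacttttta

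RefSeq windows were matched for 7 of the 10 genes, and none for Ccn2, Tead1 and Tead4. Some genes had several start sites, which gave 10 windows. The core was present in 8 of these windows and in 6 of the 7 genes. Among all 32851 windows of the same length, 12.6% held it, and 1.02% held it at least 2 times. In Ccn1 the match began 103 bases before the start site, and in Amotl2 it began 65 bases before it. Ankrd1 held 2 matches, beginning 210 and 123 bases upstream. Yap1 and Wwtr1 held 1 match each per window, and the first 2 of 3 Tead3 windows held 1 and 2. The Tead2 window held none. The longer form TGGAATGT occurred in 0 of the 10 windows and in 1.18% of all windows. A match is a string of letters and not a measured binding site, and several windows of one gene overlap.

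None of the 10 genes passed the threshold in either direction. The threshold was an adjusted p of 0.05 in limma, a linear model with a shared estimate of variance, over the 11963 genes bright enough to be tested. Across all tested genes 10.7% passed, 6.29% as higher and 4.45% as lower in the knockout. At an unadjusted p under 0.05 the count of members was also 0, against 25.5% of all tested genes. Of the 10 members, 7 were higher in the knockout by sign and 3 lower, where 44.3% of all tested genes were higher, with a median log2 difference of 0.019, while the median over all tested genes was -0.022. The log2 differences ran from -0.31 for Ankrd1 to 0.13 for Wwtr1. An exact permutation test of 2 arrays against 2 cannot give a p below 0.333.

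**Figure D1:**
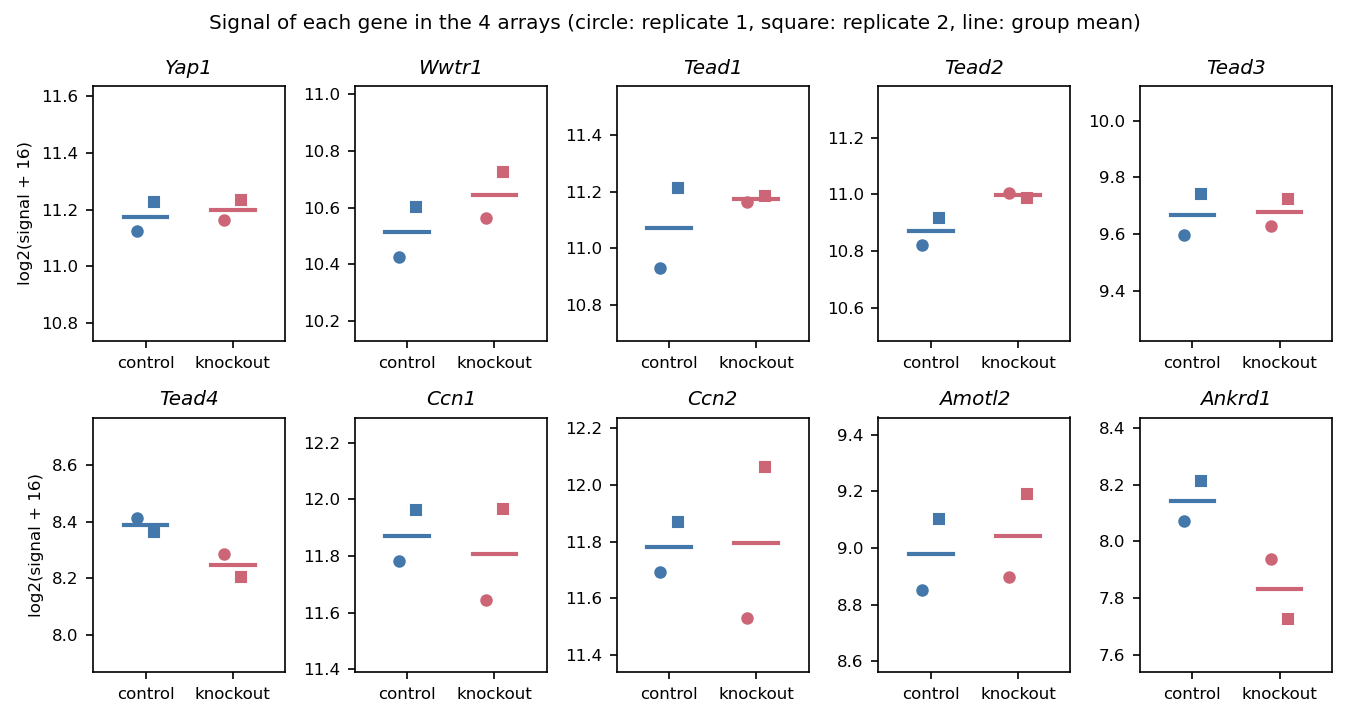
Log2(signal + 16) of the 10 genes on the vertical axis in control (blue) and knockout (red) arrays, with replicate 1 as a circle, replicate 2 as a square and the group mean as a line; each panel has its own centre and the same span. Both knockout arrays lay above both control arrays for Tead2 and below them for Tead4 and Ankrd1, and the groups overlapped for the other 7 genes.

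The groups did not overlap for 3 members, Tead2 on the higher side and Tead4 and Ankrd1 on the lower side. This is below the share over all tested genes, of which 56.3% had groups that did not overlap, 26.4% with the knockout above and 29.9% with it below. For 7 of the 10 members the difference between the group means was smaller than the larger gap between arrays of one group, and this held for 56.8% of all tested genes.

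Neither coactivator gene passed, and both were measured with overlapping groups. Yap1 read 11.12 and 11.23 on the log2(signal + 16) scale for controls and 11.16 and 11.23 for knockouts, from deposited signals of 2179.5, 2396.6, 2319.5 and 2370.4. The groups overlapped on both scales, with replicate 2 the higher of each group, and in deposited signal both knockout arrays lay between the controls. Its log2 difference was 0.023 ± 0.059 (SE; here and below n = 2 arrays per group), with a 95% interval of -0.11 to 0.16 (limma, adjusted p = 0.84), and its sign turned with median centring of the arrays. The interval runs from 0.927-fold to 1.11-fold. It rests on 2 arrays per group and a variance partly shared across genes, and it covers bulk RNA rather than any 1 cell type. Wwtr1 read 10.42 and 10.60 for controls and 10.56 and 10.73 for knockouts. The lower knockout array lay below the higher control array. The log2 difference was 0.13 ± 0.080 (95% interval -0.049 to 0.31, limma adjusted p = 0.36), and without 1 array it ranged from 0.040 to 0.22.

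The 4 TEAD genes encode the DNA-binding partners of YAP and TAZ. Tead1 was measured by 2 probe sets. The brighter one read 10.93 and 11.21 for controls and 11.16 and 11.18 for knockouts, so both knockout values lay between the control values. Its log2 difference was 0.10 ± 0.084, and the other probe set gave 0.056. The gap between the Tead1 control arrays, 0.284, exceeded that of 93.9% of tested genes, and without control replicate 1 the difference was -0.038.

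Tead2 read 10.82 and 10.92 for controls and 11.01 and 10.99 for knockouts, or 1759, 1936.6, 2076.4 and 1981.3 in deposited signal. Both knockout arrays lay above both control arrays. The log2 difference was 0.13 ± 0.059 (95% interval -0.0049 to 0.26), which did not pass (limma, unadjusted p = 0.057, adjusted p = 0.21). It kept its sign in all 15 alternative analyses, from 0.077 to 0.17, and passed in none of them.

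Tead3 read 9.60 and 9.74 for controls and 9.63 and 9.72 for knockouts, with both knockout values between the control values. Its log2 difference of 0.0075 ± 0.084 turned sign with median centring. Tead4 read 8.41 and 8.36 for controls and 8.29 and 8.21 for knockouts, with both knockout arrays the lower. The log2 difference was -0.14 ± 0.13 (limma, adjusted p = 0.53), with a 95% interval from 0.74-fold to 1.11-fold. Across the 4 TEAD genes 3 differences were positive and 1 negative, and none passed.

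None of the 4 target genes passed, and 2 were higher and 2 lower in the knockout by sign. Ccn1, which is also induced within minutes by growth factors and by handling of cells, read 11.78 and 11.96 for controls and 11.65 and 11.97 for knockouts, from deposited signals of 3476.8, 3969.3, 3222.1 and 3962.8. On the log2 scale the control arrays lay between the knockout arrays, whereas in deposited signal control replicate 2 was the highest. Its log2 difference was -0.066 ± 0.097 (95% interval -0.28 to 0.15, limma adjusted p = 0.71). Ccn2, also called CTGF, read 11.69 and 11.87 for controls and 11.53 and 12.06 for knockouts, from deposited signals of 3266.7, 3730.7, 2996.7 and 4217.8. One knockout array was thus the lowest of the 4 and the other the highest. For Ccn2 the log2 difference was 0.015 ± 0.14 (95% interval -0.29 to 0.32, limma adjusted p = 0.96), and its sign turned with median centring.

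Both CCN genes depended on which knockout array was used. The knockout arrays differed by 0.322 for Ccn1 and by 0.534 for Ccn2, gaps wider than or equal to those of 93.7% and 98.9% of tested genes. Without knockout replicate 1 the Ccn2 difference was 0.28 and passed (limma, adjusted p = 0.0011), whereas leaving out knockout replicate 2 made it -0.25 and passed on the other side (adjusted p = 0.0092). For Ccn1 the value was 0.095 without knockout replicate 1 (adjusted p = 0.43), whereas leaving out knockout replicate 2 gave -0.22 (adjusted p = 0.025). Fits with 1 knockout array assume that it varies like the controls, and here the trend across genes alone set their variance. The Ccn2 calls went in opposite directions, each with a single knockout pool.

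Amotl2 read 8.85 and 9.10 for controls and 8.90 and 9.19 for knockouts. In each group replicate 2 was the higher, and the groups overlapped. The log2 difference was 0.067 ± 0.13 (95% interval -0.22 to 0.36, limma adjusted p = 0.79). Ankrd1 read 8.07 and 8.21 for controls and 7.94 and 7.73 for knockouts, or 254.7, 269.7, 226.8 and 202.9 in deposited signal. Both knockout arrays were below both controls. Ankrd1 had a log2 difference of -0.31 ± 0.16 (95% interval -0.67 to 0.046), which did not pass (limma, unadjusted p = 0.081, adjusted p = 0.26). Its mean over the 4 arrays, 7.99, was just above the filter at 7.97, and no detection call was used. It kept its sign in all 15 alternative analyses, and 3 of these left it untested because it lay under the filter. As for Tead2, groups that did not overlap left little room for the sign to turn.

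**Figure D2:**
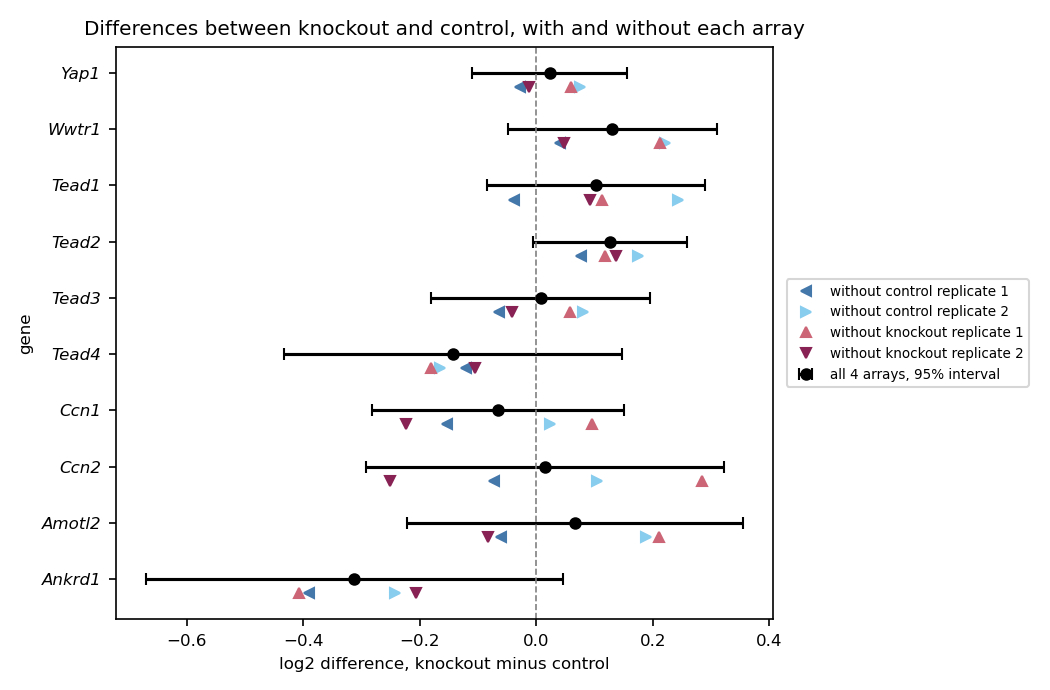
Log2 difference, knockout minus control, on the horizontal axis for each of the 10 genes, with the 95% interval from all 4 arrays in black and the difference after leaving out each array as coloured triangles. All 10 intervals include 0, and the triangles of Ccn2 spread from -0.25 to 0.28.

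Replicate 2 was above replicate 1 in both groups for 7 of the 10 members, Yap1, Wwtr1, Tead1, Tead3, Ccn1, Ccn2 and Amotl2. The same held for 25.3% of all tested genes. The labels do not say that a replicate number marks a shared litter or day.

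The Hippo kinase cascade, which acts on YAP and TAZ, showed no called change with all 4 arrays and no replicate block. Of 15 listed kinases and kinase partners 14 had a probe set of their own and were tested, and 0 rose and 0 fell in limma. At an unadjusted p under 0.05 the count was 1, Stk38l, an NDR kinase, with a log2 difference of -0.17 ± 0.061 (adjusted p = 0.10). The list median was 0.029. Over all tested genes 6.29% rose, 4.45% fell and 25.5% had an unadjusted p under 0.05 in limma. Lats2, a kinase that phosphorylates YAP and is itself a YAP target, read 9.19 and 9.54 for controls and 9.59 and 9.58 for knockouts with a difference of 0.22 ± 0.11 (adjusted p = 0.25). Nuak2, a kinase and YAP target, differed by 0.14 ± 0.087 and did not pass. Stk38l was at -0.24 without knockout replicate 2. It passed as lower with the replicate block (limma, adjusted p = 0.013), where the trend across genes alone set the variance.

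Among 21 tested upstream regulators 1 rose, 0 fell and 20 did not pass, where 6.29% of all tested genes rose and 4.45% fell. The list median was -0.035. The riser was Fat4, an atypical cadherin that acts as a receptor for Dchs1. Fat4 read 7.55 and 8.08 for controls and 8.71 and 8.90 for knockouts, with every knockout value above every control value. It was 1.98-fold higher (log2 difference 0.99 ± 0.18, limma adjusted p = 0.0096), but its control mean of 7.82 lay under the filter level and it was tested through its knockout signal. With no filter it passed as well (adjusted p = 0.0077), and without the variance trend it did not (adjusted p = 0.066). Dchs1, the ligand of Fat4, read 7.96 and 8.33 for controls and 8.63 and 8.60 for knockouts. Its log2 difference of 0.47 ± 0.15 did not pass (limma, adjusted p = 0.077). It passed without control replicate 2, at 0.64, without quantile normalization, at 0.51, and with crossed replicate pairs (adjusted p = 0.035). Without quantile normalization the trend across genes alone set the variance.

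The remaining regulators named by the rule went both ways. Ajuba, a LIM protein that inhibits LATS at junctions, read 9.40 and 9.56 for controls and 9.21 and 9.07 for knockouts. Its log2 difference of -0.34 ± 0.096 lay at the threshold (limma, adjusted p = 0.051), and it passed without knockout replicate 1 (-0.41) and under 5 of the other alternatives. Frmd6, a FERM-domain protein linked to the kinase cascade, differed by 0.28 ± 0.093 (limma, adjusted p = 0.091). Frmd6 was at 0.35 without knockout replicate 1 and passed with the replicate block (adjusted p = 0.029). In the replicate block fit, which also called Ajuba, the trend across genes alone set the variance. Of the VGLL genes, whose products also bind TEAD, Vgll4 differed by 0.067 ± 0.058 and Vgll2 by -0.14 ± 0.16, and neither passed. The sign of Vgll2 turned without knockout replicate 1. Vgll1 and Vgll3 were too dim to be tested.

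Other YAP and TEAD targets differed from gene to gene. The list holds 18 genes often used in YAP target signatures, chiefly of cancer cells, and 4 of its genes (Lats2, Nuak2, Fjx1 and Ptpn14) are also in the lists above. Of 17 tested, 6 rose, 0 fell and 11 did not pass, where 6.29% of all tested genes rose and 4.45% fell. The median log2 difference of the list was 0.12. Ccdc80, the gene of a secreted protein found in matrix, read 8.13 and 8.65 for controls and 10.32 and 10.62 for knockouts and was 4.23-fold higher (log2 difference 2.08 ± 0.16, limma adjusted p = 0.00019). Gadd45a, a stress-induced growth arrest gene, read 9.75 and 9.96 for controls and 10.53 and 10.59 for knockouts and was 1.63-fold higher. Axl, a receptor tyrosine kinase gene, read 10.05 and 10.18 for controls and 10.68 and 10.92 for knockouts and was 1.61-fold higher.

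The smaller increases were in Igfbp3, which encodes an IGF-binding protein, at 1.37-fold, in the RNA-binding protein gene Rbms3 at 1.27-fold and in the transmembrane BMP modulator gene Crim1 at 1.24-fold. Without the variance trend Ccdc80 and Gadd45a passed, whereas Axl (adjusted p = 0.052), Igfbp3, Rbms3 and Crim1 did not. The count of the list was 2 without the variance trend and 4 without control replicate 1. Rbms3 and Crim1 were also lost with median centring and without control replicate 1, when Crim1 was 0.21, and Crim1 was lost with no filter and with crossed replicate pairs. Fjx1, a homologue of the Golgi kinase Four-jointed that acts on Fat and Dachsous cadherins, had the lowest value of the list, -0.25 ± 0.11, and did not pass (adjusted p = 0.19).

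The TEAD core was searched in this list in the same way. Windows were matched for 12 of the 18 genes, and 3 genes, Axl, Crim1 and Ptpn14, held it. These were 3 of 14 windows, where 12.6% of all windows held it. Ptpn14 differed by -0.035 and did not pass. Axl is shown for comparison with the target promoters above, since it rose while Ccn1, Amotl2 and Ankrd1 did not pass. Its window at chr7:25788734-25788983 (minus strand, GRCm38.p6, RefSeq) has 1 match, in capitals, beginning 233 bases before the start site. The windows of Gadd45a, Igfbp3 and Rbms3, genes that also rose, held 0 matches. A link between the letters and the differences was not tested.
Axl: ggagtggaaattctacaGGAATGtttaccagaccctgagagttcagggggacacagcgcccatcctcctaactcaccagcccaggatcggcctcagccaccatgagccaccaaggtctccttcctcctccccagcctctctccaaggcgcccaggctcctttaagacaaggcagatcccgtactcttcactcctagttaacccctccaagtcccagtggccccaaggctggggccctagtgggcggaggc

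The relatives of the target genes were mostly dim. Of 6 other CCN and muscle ankyrin repeat genes 3 were tested, and 1 rose, where 6.29% of all tested genes rose. Ccn4, also called WISP1 and a Wnt-induced matricellular gene, read 7.51 and 8.13 for controls and 9.25 and 9.09 for knockouts. It was 2.55-fold higher (log2 difference 1.35 ± 0.19, limma adjusted p = 0.0026), but its control mean of 7.82 lay under the filter level and it too was tested through its knockout signal. With no filter it passed as well (adjusted p = 0.0022), and without the variance trend it did not (adjusted p = 0.051). Ccn5, a CCN gene without the C-terminal domain, differed by -0.040 ± 0.13, a sign that turned in the values as deposited. Ankrd23 differed by 0.13 ± 0.15. Ccn3, Ccn6 and Ankrd2 lay under the filter. Ccn1 and Ccn2 themselves did not pass, and a difference between their response and that of Ccn4 was not tested.

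**Figure D3:**
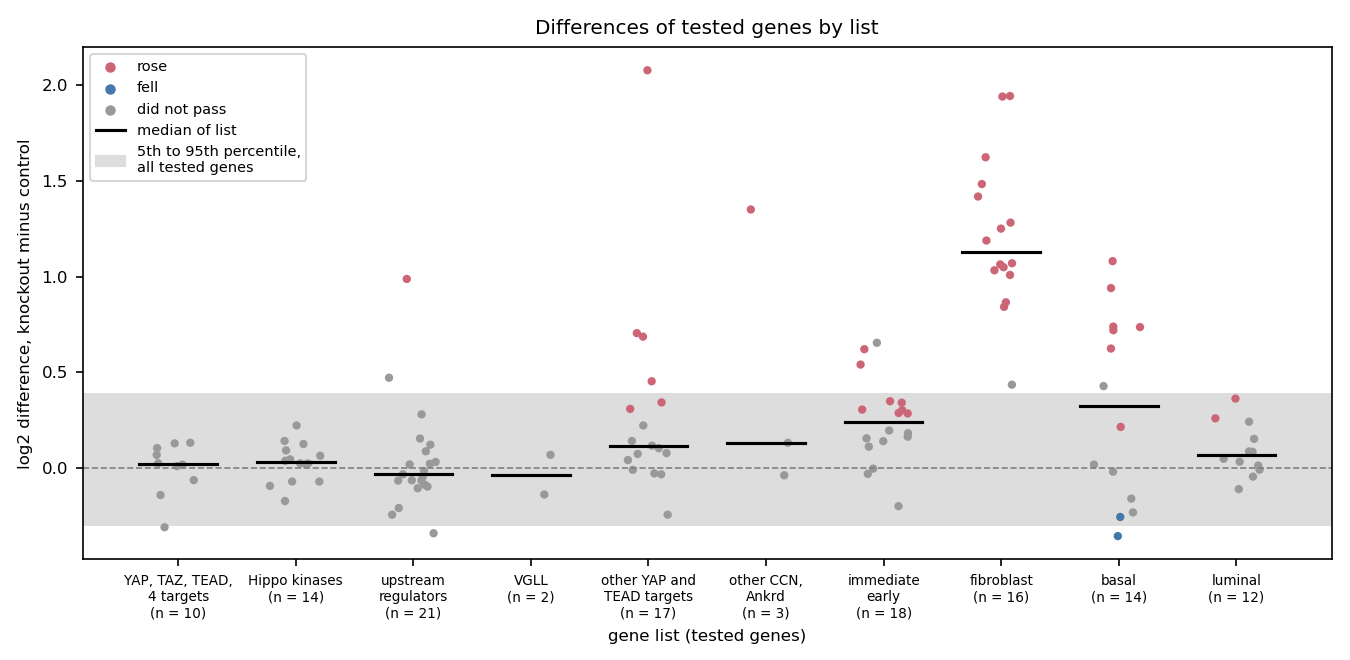
Log2 difference, knockout minus control, on the vertical axis for the tested genes of 10 lists on the horizontal axis, with genes that rose in red, genes that fell in blue, others in grey, the list median as a bar and the 5th to 95th percentile of all tested genes (-0.305 to 0.391) as a band. The 10 YAP, TAZ, TEAD and target genes and the 14 kinases lie within or close to the band, while the fibroblast markers centre on 1.13.

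Markers of other cells moved in the same arrays, where 6.29% of all tested genes rose and 4.45% fell. Of 16 tested fibroblast markers 15 rose and 0 fell, with a median of 1.13, and the log2 of their summed signal was 13.78 and 13.87 for controls and 14.90 and 15.20 for knockouts. Fat4, Ccdc80, Axl and Ccn4 are also expressed by fibroblasts, and the part of stromal cells in their increase was not tested. Endothelial markers rose in 5 of 13 cases (median 0.51) and adipocyte markers in 5 of 8 (median 0.51, or 0.13 over all 13 on the array). The endothelial count was 2 without control replicate 1, 9 without knockout replicate 1 and 0 without the variance trend, and the adipocyte count was 3 without control replicate 1 and 1 without the variance trend. Basal markers rose in 7 and fell in 2 of 14 cases (median 0.32), and luminal markers rose in 2 of 12 (median 0.064). The basal risers, from 0.21 to 1.08, were Lgr5, Oxtr and the contractile genes Mylk, Myh11, Cnn1, Tagln and Acta2. Trp63 (-0.36) and Itgb4 (-0.26) fell. Cdh3 (-0.23), Krt15 (-0.16), Krt5 (-0.021), Itga6 (0.016) and Krt14 (0.43) did not pass. Without the variance trend 1 basal and 0 luminal markers rose, and with a robust prior 2 basal and 1 luminal. The luminal count was 1 without control replicate 1 and 4 without control replicate 2, and 0 basal markers fell without control replicate 1. All 12 luminal and all 14 basal markers on the array were above the filter. Macrophage markers rose in 1 and fell in 1 of 9 cases (0 and 0 without control replicate 1 or without the variance trend). Lymphocyte markers fell in 2 of 3, with 8 more on the array not tested. Skeletal muscle markers had 0 calls among 4 in limma, with 0 at an unadjusted p under 0.05. Control means of the called fibroblast marker Lama2 (7.55) and endothelial marker Kdr (7.69) lay under the filter level of 7.97. Both were tested through their knockout signal. Cd79b, a lymphocyte marker that fell, had a knockout mean of 7.43 and was tested through its control signal. With no filter 16 of 17 fibroblast, 5 of 14 endothelial and 5 of 13 adipocyte markers rose, and 4 of 11 lymphocyte markers fell. With bulk RNA, fewer cells of a type and less RNA per cell cannot be told apart.

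Immediate early genes respond to handling, as Ccn1 does. Of 18 tested 8 rose, 0 fell and 10 did not pass, where 6.29% of all tested genes rose and 4.45% fell. The list median was 0.24. The called increases were led by the transcription factor genes Klf4 (1.54-fold) and Fosb (1.45-fold) and the phosphatase gene Dusp1 (1.27-fold). The count was 2 without control replicate 1, 14 without knockout replicate 1, 4 with a robust prior, 12 with the replicate block and 0 without the variance trend. Klf4 and Fosb were lost in the first, the third and the last of these. Without knockout replicate 2 Klf4 and Fosb were at log2 differences of 0.40 and 0.33. The log2 of the summed signal of the 18 genes was 15.91 and 16.06 for controls and 16.13 and 16.29 for knockouts. Replicate 2 was thus the higher of each group, as it was for Ccn1 and Ccn2. The same held for the summed signal of the fibroblast, endothelial, adipocyte and basal markers. It did not hold for the macrophage, lymphocyte and skeletal muscle markers. The part of handling in the values of Ccn1 and Ccn2 was not tested.

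Ovol2 itself read 8.05 and 8.31 for controls and 7.85 and 7.73 for knockouts, a log2 difference of -0.39 ± 0.16. It did not pass (limma, adjusted p = 0.17) except with crossed replicate pairs (adjusted p = 0.0497). Both knockout values lay under the filter level of 7.97, and Ovol2 was tested through its control signal. The place of its probes relative to the deleted part is not known here. Krt14, the source of the Cre promoter, read 11.14 and 11.31 for controls and 11.37 and 11.95 for knockouts. Knockout replicate 1 thus lay close to control replicate 2. The log2 difference of Krt14 was 0.43 ± 0.15 (limma, adjusted p = 0.099), and 0.72 without knockout replicate 1. Krt14 passed in limma without quantile normalization (adjusted p = 1.2e-07), with median centring (adjusted p = 0.0065) and with the replicate block (adjusted p = 2.4e-13). In each of these fits the trend across genes alone set the variance, which left out the gap between Krt14 arrays. Without quantile normalization its SE was thus 0.074. An exact permutation test of 2 arrays against 2 cannot give a p below 0.333. Array medians of the deposited signal lay between 252 and 272. Across tested genes, which are not independent replicates, r was 0.991 between the control arrays and 0.987 between the knockout arrays.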

How the data were processed

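The deposited values were signal intensities on a linear scale, 1 per probe set and array, with PLIER version 2.0 and Affymetrix Expression Console version 1.1.1 named, per the submitters' processing notes. How the authors corrected background and normalized, and which build they used, is not stated. Of 35556 probe sets 21789 carried 1 gene symbol, 1621 several, and 12146 were not listed. The brightest probe set by mean stood for a gene.

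Values were log2(signal + 16), quantile normalized because the array medians differed by 0.1006. Genes with a mean under the 40th percentile (log2 value 7.97, signal about 235) were not tested. Groups were compared in limma version 3.58.1 (R version 4.3.3) by lmFit and then eBayes, using a mean-variance trend, two-sided, with Benjamini-Hochberg adjustment over 11963 genes. The fit had 2 residual degrees of freedom and a median SE of 0.084. It was tested on simulated data. The number of arrays limits the precision, and depth does not apply to arrays. The labels call the arrays biological replicates.

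Named genes were the 10 members, Ovol2, Krt14, and in each pathway list the genes past the threshold with up to 3 further tested ones by size. In marker lists they were up to 3 past the threshold, and the basal list was named in full. Members and lists were chosen with earlier results of these data known. Promoters came from RefSeq, and only the 250 upstream bases were used. Alternatives covered normalization, offset, filter, probe set, variance prior, replicate pairs and each array left out.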

Additional observations from a re-analysis of the deposited data

How the results depend on the processing

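No member passed in either direction in the main analysis, nor in any alternative other than the removal of 1 knockout array. Leaving out each array gave 0 to 1 members that rose and 0 to 2 that fell, with Ccn2 from -0.251 to 0.284 and Ccn1 from -0.223 to 0.0955. Signs also turned when arrays were left out for Yap1 (-0.028 to 0.075), Tead1 (-0.038 to 0.24), Tead3 (-0.064 to 0.079), Amotl2 (-0.084 to 0.21), Vgll2 (-0.31 to 0.025), Ankrd23 (-0.020 to 0.28) and Ccn5 (-0.18 to 0.094). With median centring the differences were -0.011 for Yap1, -0.0051 for Tead3 and -0.022 for Ccn2, and in the values as deposited Ccn5 was 0.0084.

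The pathway and target lists had 8 genes that rose and 0 that fell. The count that rose became 2 without the variance trend. The count that fell became 1 with an offset of 64, with a filter at the 60th percentile, with a robust prior and with crossed replicate pairs, 2 with the replicate block, and 0 to 1 with arrays left out. Over all tested genes, 753 rose and 532 fell. Median centring gave 480 and 273, no variance trend 143 and 45, the replicate block 1170 and 1076, and leaving out arrays 311 to 1164 and 140 to 1182. Without control replicate 1 these were 311 and 140, and without knockout replicate 1 they were 1164 and 1182. The cause was not tested.

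The replicate block changed no member's call. In that fit the trend across genes alone set the variance, so its counts leave out each gene's own spread. Deviations of same-numbered arrays correlated at -0.196, so crossed pairs, chosen after seeing the data, were also fitted. They called 0 members.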
